A study of Mus musculus with 2 samples.

Results

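The genes described here encode the regulatory proteins and the actin of the cardiac thin filament, with 1 kinase named after its interaction with troponin I. They are Tnnt2, Tnni3, Tnnc1, Tpm1, Actc1 and Tnni3k, and all 6 were found by name in both deposited per-gene files, which together list 25235 genes. In striated muscle the thin filament is a polymer of actin along which tropomyosin lies, and the troponin complex sits on tropomyosin at regular intervals. Calcium binding to troponin C relieves the inhibition by troponin I, while troponin T holds the complex on tropomyosin, so that tropomyosin moves and myosin heads can bind actin. Adult cardiomyocytes use the cardiac forms of troponin T, troponin I and alpha-actin, and these genes are widely used to recognise them.

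The values come from snRNA-seq of 1 adult heart (9 weeks) and 1 aged heart (78 weeks) of female F1 hybrids with a C57BL/6J (BL6) mother and a CAST/EiJ (CAST) father. The genotype label of both animals is C57BL/6JxCAST/EiJ, their breed label names the Xist-mutant BL6 mother of the cross, and the study describes them as wild-type. Nuclei were isolated from the frozen organ, sorted for DNA staining with DRAQ7 and sequenced from the 3′ end of polyadenylated RNA. The authors pooled the nuclei of each heart whose active X chromosome was the BL6 copy and counted, for each gene and allele, the reads that overlap a SNP between the strains. Every value below is therefore a pseudobulk of all cell types of 1 animal, and because each age has 1 library, age and animal cannot be told apart and no test between the ages was made. Intervals are 95% intervals and cover counting error only.

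In all, 9747535 reads over SNPs were counted from adult and 5805807 from aged nuclei. Reads were scaled to the sum of all genes of the library and are given as RPM (reads scaled to a library total of 1e+06). X-linked reads outside Xist and Tsix were 97.1% and 96.6% BL6, as the label of an active BL6 X chromosome implies. The allelic ratio is the BL6 share of the reads of a gene, and over autosomal genes it had a median of 0.536 (adult) and 0.537 (aged). Over the 12736 genes with 20 or more reads in both libraries, the median log2 ratio of scaled reads (aged over adult) was 0.22, so that a typical gene was slightly above 0 on this scale. All 6 members passed this minimum in both libraries, the fewest reads being the 1097 of Tnnc1 in the aged library. Markers that define cardiomyocytes were present in both libraries, among them the myosin heavy chain gene Myh6 with 2135 and 2451 RPM.

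Promoter windows of 3 members are shown because these members stood furthest apart in the values that follow. Actc1 had the highest aged over adult ratio of the members, Tnni3k the lowest, and Tnnt2 the allelic ratio furthest from the autosomal median. The windows hold the 250 bases before the RefSeq start (GRCm38.p6), read 5′ to 3′ on the strand of the gene, and represent the BL6-derived reference only. They lie at chr2:114052876-114053125 on the minus strand for Actc1, chr1:135836084-135836333 on the plus strand for Tnnt2 and chr3:155055408-155055657 on the minus strand for Tnni3k. Capitals mark matches on either strand to CATTCC (the MCAT element bound by TEAD factors), AGATAA, the letters read by GATA factors, AAGTG, the core of NKX2-5 sites, TATAAA, or the CArG box bound by serum response factor.
Actc1: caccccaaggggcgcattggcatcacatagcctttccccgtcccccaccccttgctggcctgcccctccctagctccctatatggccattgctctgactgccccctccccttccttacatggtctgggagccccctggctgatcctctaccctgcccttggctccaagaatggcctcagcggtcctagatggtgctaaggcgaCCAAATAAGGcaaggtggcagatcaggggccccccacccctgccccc
Tnnt2: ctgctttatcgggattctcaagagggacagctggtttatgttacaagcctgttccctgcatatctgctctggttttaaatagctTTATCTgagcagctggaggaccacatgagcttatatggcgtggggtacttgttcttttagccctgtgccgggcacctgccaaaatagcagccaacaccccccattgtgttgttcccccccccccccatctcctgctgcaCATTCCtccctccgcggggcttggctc
Tnni3k: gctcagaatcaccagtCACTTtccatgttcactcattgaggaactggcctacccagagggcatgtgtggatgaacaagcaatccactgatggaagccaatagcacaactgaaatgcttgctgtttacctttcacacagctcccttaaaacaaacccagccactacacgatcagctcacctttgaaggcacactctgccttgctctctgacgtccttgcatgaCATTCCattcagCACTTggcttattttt

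The search covered these windows and the 50 bases after each start. A CArG box was found in Actc1, beginning at position -47 from the start, and in no other member, while 1.63% of all 32851 RefSeq windows hold one. Actc1 also had the letters TATAAA at position 34 after the start, a match that 13.6% of windows hold. CATTCC was found in 4 members, at -27 in Tnnt2, -58 in Tnnc1, -56 in Tpm1 and -28 in Tnni3k, against 14.7% of all windows. AGATAA was found in Tnnt2 at -166 (11.2% of windows) and AAGTG in Tnni3k at -234 and -16 (46.4% of windows). CANNTG, the E box, was found in all 6 members and in 72.3% of windows, and is left in lower case. The E box of Tnni3k at -16 overlaps its AAGTG match. A second RefSeq start of Tnnt2 had E box matches only. These matches describe letters of the reference and say nothing of what is bound.

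Cardiac troponin T is encoded by Tnnt2 (chr1:135836315-135852268, plus strand, GRCm38), a locus of 16.0 kb of which exons cover 48.6% in GENCODE M21. It had 12139 adult and 7055 aged reads, or 1245 and 1215 RPM. The log2 ratio (aged over adult) was -0.04 with an interval of -0.08 to 0.01, so that the libraries did not differ beyond counting error on this scale. The alleles did not move alike. BL6 reads went from 822 to 867 RPM, a ratio of 1.05 (1.02 to 1.09), and CAST reads from 423 to 348 RPM, a ratio of 0.823 (0.780 to 0.868). On this scale Tnnt2 was the only member whose alleles lay on opposite sides of 0 between the libraries. The log2 ratios were 0.08 for its BL6 allele and -0.28 for its CAST allele, both below the 0.22 of the median gene. The alleles of Tnnc1 lay on either side of 0.22, at 0.59 (BL6) and 0.16 (CAST), so that this trait depends on the scale. The Tnnt2 total also depended in sign on the scale, with a log2 ratio of -0.26 relative to the median gene and 0.02 relative to the median of the cardiomyocyte list.

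Tnni3 encodes cardiac troponin I, the inhibitory subunit, in a locus of 4.41 kb (chr7:4518305-4522718, minus strand) with 43.1% exonic sequence. It had 1814 adult and 1464 aged reads, or 186 and 252 RPM. The aged library was higher by a ratio of 1.35 (1.26 to 1.45), a log2 ratio of 0.44. Both alleles were higher in the aged library, BL6 with 96.8 and 142 RPM and CAST with 89.3 and 110.1 RPM.

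The calcium-binding subunit of heart and slow skeletal muscle, troponin C, is encoded by Tnnc1 (chr14:31208312-31211711, plus strand), which spans 3.4 kb with 30.1% exonic sequence. Its 1385 adult and 1097 aged reads gave 142 and 189 RPM, a ratio of 1.33 (1.23 to 1.44) and a log2 ratio of 0.41. BL6 reads were 77.7 and 117 RPM, a ratio of 1.504 (1.35 to 1.67). CAST reads were 64.4 and 72.2 RPM, a ratio of 1.12 whose interval of 0.988 to 1.27 includes 1. Most of the difference in Tnnc1 reads was thus on the BL6 allele.

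Alpha-tropomyosin, the cable that covers the myosin-binding sites, is encoded by Tpm1 (chr9:67022590-67049401, minus strand), a locus of 26.8 kb with 24.2% exonic sequence. It had 4115 adult and 3097 aged reads, or 422 and 533 RPM, a ratio of 1.26 (1.21 to 1.32) and a log2 ratio of 0.34. BL6 reads were 244 and 298 RPM and CAST reads 178 and 235 RPM, both higher in the aged library. Tpm1 is spliced into striated muscle, smooth muscle and cytoskeletal forms, which the counts per gene do not divide.

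Actc1, the cardiac alpha-actin gene and the body of the filament itself, had the widest difference of the members. The locus spans 5.59 kb (chr2:114047282-114052875, minus strand) with 26.1% exonic sequence. It had 3286 adult and 8042 aged reads, although the aged library was the shallower one, and its level went from 337 to 1385 RPM. The ratio was 4.11 (3.95 to 4.28), or 2.04 on the log2 scale. Both alleles were higher in the aged library, BL6 with 148 and 688 RPM, a ratio of 4.64 (4.37 to 4.93), and CAST with 189 and 697 RPM, a ratio of 3.69 (3.49 to 3.90). Among the 1201 genes with 1000 or more reads in both libraries, the log2 ratio of Actc1 was second only to Phka1 (2.39) and was followed by Ccnd3 (1.86). Among all 12736 genes it ranked 92nd from the top. Under the 7 other scalings tried, the log2 ratio of Actc1 lay between 1.61 and 2.09.

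Tnni3k encodes a cardiomyocyte kinase that binds troponin I and is not itself a part of the filament. Its locus spans 269 kb (chr3:154786291-155055407, minus strand), of which exons cover 1.22%, so that 98.8% of it is intronic. It had 10686 adult and 3283 aged reads, or 1096 and 565 RPM. The adult library was higher by a ratio of 1.94 (1.86 to 2.02), a log2 ratio (aged over adult) of -0.96. The lower level was found on both alleles, with 602 and 299.7 RPM for BL6 and 495 and 266 RPM for CAST. Across the 7 other scalings its log2 ratio lay between -1.57 and -0.90, below 0 in each.

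**Figure D1:**
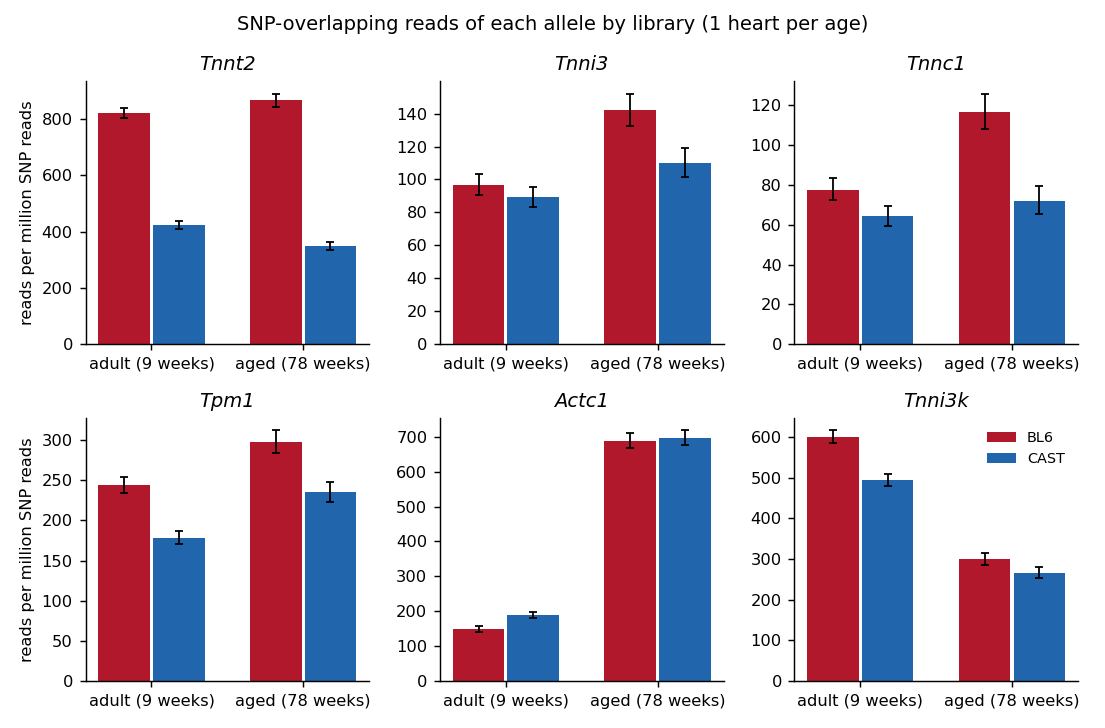
Scaled SNP-overlapping reads (RPM) of the BL6 (red) and CAST (blue) allele of each member in the adult and the aged library, with exact Poisson 95% intervals as error bars, 1 heart per age and a separate vertical axis per gene. Both Actc1 bars stand well above their adult values (148 to 688 and 189 to 697 RPM), both Tnni3k bars stand below them, and in Tnnt2 the BL6 bar is slightly higher while the CAST bar is lower in the aged library.

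At a fold of 1.5, 1 of the 6 members (Actc1) was higher in the aged library, 1 (Tnni3k) was lower and 4 lay between. Over all genes tested, 28.0% were at least 1.5-fold higher and 11.8% at least 1.5-fold lower. Among genes with 1000 or more reads in both libraries these shares were 18.9% and 11.6%. The count of members past the fold was therefore near the background in each direction. Scaled to the median gene, the shares over all genes were 18.0% higher and 18.4% lower, and the member counts stayed at 1 and 1. Relative to the median gene the log2 ratios were 0.22 for Tnni3, 0.19 for Tnnc1, 0.12 for Tpm1, 1.82 for Actc1 and -1.18 for Tnni3k.

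**Figure D2:**
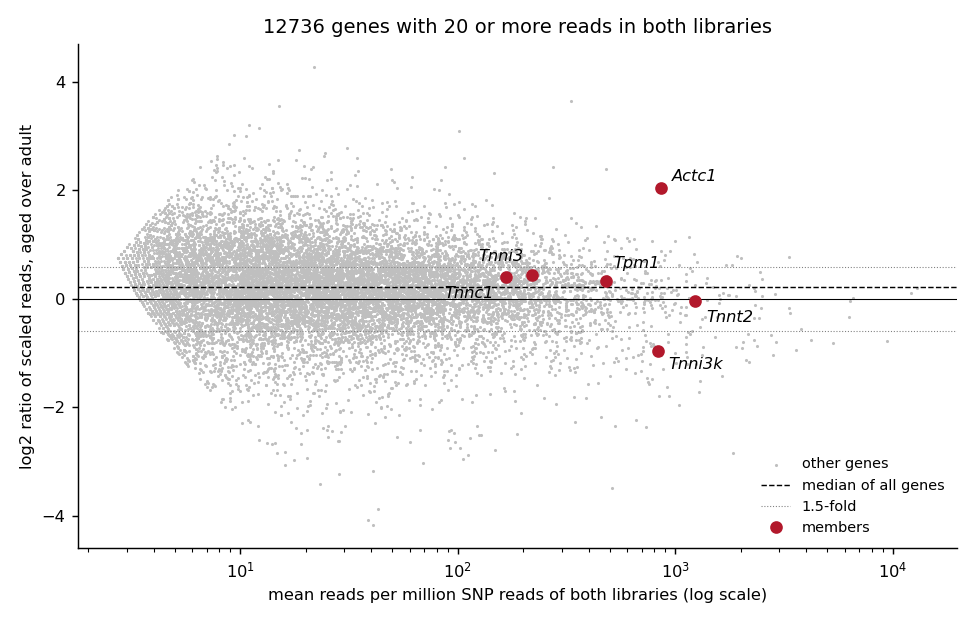
Log2 ratio of scaled reads (aged over adult) against the mean RPM of both libraries (log scale), 1 point per gene for the 12736 genes with 20 or more reads in both libraries, with the 6 members in red, the median of all genes as a dashed line and a fold of 1.5 as dotted lines. Actc1 (2.04) lies above nearly all genes of similar read number, Tnni3k (-0.96) lies below the lower dotted line, and the other 4 members lie between the dotted lines.

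The log2 ratio varied with the length of the locus over all genes, from a median of 0.54 for 899 genes under 5 kb to -0.11 for 505 genes over 300 kb. Against loci of their own length class, the order of the members at both ends was the same. Actc1 ranked 12th from the top of 1414 genes of 5 to 10 kb, whose median was 0.43. Tnni3k ranked 167th from the bottom of 1648 genes of 100 to 300 kb, whose median was 0.02. Relative to genes under 5 kb the log2 ratios of Tnni3 and Tnnc1 were -0.11 and -0.13, so that their direction turned, and relative to genes of 10 to 30 kb those of Tnnt2 and Tpm1 were -0.29 and 0.08.

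Ratios between members within a library do not depend on the scaling of the libraries. The reads of Tnni3, Tnnc1 and Tpm1 kept their proportions between the ages within counting error. Tnni3 reads per Tnnc1 read were 1.31 (adult) and 1.33 (aged), and the aged over adult ratio of this quantity was 1.02 (0.917 to 1.13). The corresponding ratio was 1.07 (0.987 to 1.17) for Tnni3 per Tpm1 read and 1.05 (0.960 to 1.15) for Tnnc1 per Tpm1 read. Tnnt2 fell outside these proportions, at 0.720 (0.668 to 0.776) of the adult value per Tnni3 read and 0.772 (0.731 to 0.816) per Tpm1 read. Actc1 reads per Tnnt2 read were 0.271 in adult and 1.14 in aged nuclei, 4.21 times as many (4.01 to 4.43). The Actc1 quantity was 3.03 times as large per Tnni3 read, 3.09 per Tnnc1 read and 3.25 per Tpm1 read. Between Actc1 and Tnni3k, whose ratios pointed in opposite directions, it was 7.97 times as large (7.53 to 8.43).

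Of the reads of the 5 thin filament genes (22739 adult and 20755 aged), Tnnt2 took 53.4% at the adult age and 33.99% at the aged one. Actc1 took 14.5% and then 38.7% (interval 38.1% to 39.4%), and so was the member with the most reads in the aged library. The shares of Tpm1 were 18.1% and 14.9%, those of Tnni3 7.98% and 7.05% and those of Tnnc1 6.09% and 5.29%. Summed over the 5 genes, the level was 2333 RPM (adult) and 3575 RPM (aged), a ratio of 1.53. Without Actc1 the sums were 1996 and 2190 RPM, a ratio of 1.10. Relative to the other thin filament members summed, the log2 ratios of Tnni3, Tnnc1 and Tpm1 turned negative, at -0.19, -0.22 and -0.33, since the Actc1 reads are in the divisor.

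**Figure D3:**
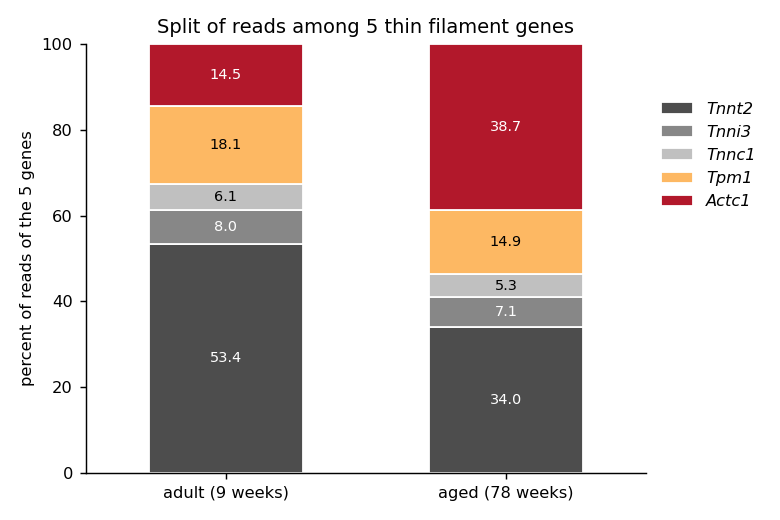
Percent of the SNP-overlapping reads of 5 thin filament genes taken by each gene (stacked segments, adding to 100%) in the adult and the aged library, 1 heart each. The Actc1 segment grows from 14.5% to 38.7% from adult to aged, and the Tnnt2 segment shrinks from 53.4% to 33.99%.

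Levels of different genes were set side by side per kilobase of locus. The number of SNPs in each gene, which is not given, also enters these levels. Reads from the 3′ end need not scale with the length of a locus, so that the order below is a description on this scale only. Per kilobase of locus, the order in the adult library was Tnnt2 (78.1 RPM per kb), Actc1 (60.3), Tnni3 (42.2), Tnnc1 (41.8), Tpm1 (15.7) and Tnni3k (4.07). Tnni3 and Tnnc1 did not differ beyond their counting intervals. In the aged library the order was Actc1 (248 RPM per kb), Tnnt2 (76.2), Tnni3 (57.1), Tnnc1 (55.6), Tpm1 (19.9) and Tnni3k (2.10), again with overlapping intervals for Tnni3 and Tnnc1. By reads without any correction for length, Actc1 ranked 505th (adult) and 54th (aged) among all genes. Tnni3k ranked 98th and 227th, and Tnnt2 76th and 65th.

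In the allelic ratio, Tnnt2 stood apart from the other members in both libraries. Its allelic ratio was 0.660 (0.652 to 0.668) in adult and 0.713 (0.703 to 0.724) in aged nuclei, 0.124 and 0.176 above the autosomal median. It was the only 1 of the 6 members at 0.1 or more above the median in both libraries, and 0 members were as far below it. Among autosomal genes with 20 or more reads in both libraries, 9.53% lay that far above and 8.15% that far below, and among those with 1000 or more reads 3.06% and 3.40%. The BL6 excess of Tnnt2 corresponds to 8012 reads of BL6 against 4127 of CAST (adult) and to 5032 against 2023 (aged).

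Actc1 was the member with the largest share of CAST reads. Its allelic ratio was 0.440 (0.423 to 0.457) at the adult age and 0.497 (0.486 to 0.508) at the aged one, below the autosomal median of either library. For Tnnc1 the allelic ratio was 0.547 (0.520 to 0.573) in adult and 0.618 (0.589 to 0.647) in aged nuclei. These 3 genes, Tnnt2, Tnnc1 and Actc1, were the members whose adult and aged intervals did not overlap. Intervals were separate for 11.7% of all genes with 20 or more reads in both libraries, and for 31.8% of those with 1000 or more, the range in which all 6 members lie.

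Taken as adult minus aged, the allelic ratio changed by -0.053 (-0.067 to -0.040) for Tnnt2, -0.071 (-0.110 to -0.032) for Tnnc1 and -0.057 (-0.077 to -0.037) for Actc1. A negative change is a larger BL6 share in the aged library. Tnni3 changed in the same direction by -0.043 (-0.077 to -0.0088), from an allelic ratio of 0.520 to 0.564, with overlapping intervals. Tpm1 went from 0.577 to 0.559 and Tnni3k from 0.549 to 0.530, and both changes of 0.019 had intervals that include 0. A larger BL6 share in the aged library was thus found in 4 of 6 members, beside 51.4% of autosomal genes with 1000 or more reads. The median absolute change of those genes was 0.0266, and the changes of Tnnt2, Tnnc1 and Actc1 were larger than 81.1%, 90.3% and 83.1% of the changes at that depth. Bias towards 1 allele and its change describe 1 F1 animal per age and the alleles of these strains.

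**Figure D4:**
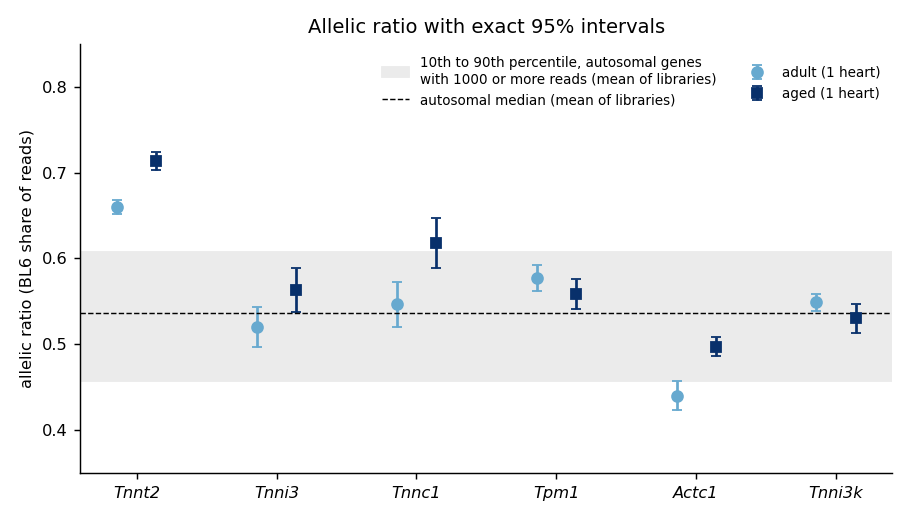
Allelic ratio (BL6 share of SNP-overlapping reads) of each member in the adult (circles) and aged (squares) library with exact 95% intervals, the autosomal median as a dashed line and the 10th to 90th percentile of autosomal genes with 1000 or more reads in both libraries as a grey band. The line and the band edges are means of the values of the libraries. Tnnt2 lies above the band in both libraries (0.660 and 0.713) and Actc1 lies below it in the adult library (0.440). Tnnc1 lies above it in the aged library (0.618), with an interval (0.589 to 0.647) that reaches into the band. The paired intervals are separate for Tnnt2, Tnnc1 and Actc1.

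No other locus of the files overlaps a member. RefSeq places the pseudogene Gm18589 within Tnni3k, and it has no reads of its own in the files. The counting is not stated to use strand. Beside Actc1, the noncoding locus C130080G10Rik begins 1.52 kb away on the right and had 30.2 and 38.9 RPM, a log2 ratio of 0.37, with an allelic ratio of 0.497 and 0.522. On the left, the nearest gene with 20 or more reads in both libraries was Fmn1, a formin that nucleates actin filaments, at 331 kb. Fmn1 was read almost wholly from the CAST allele, with an allelic ratio of 0.0258 at the adult age (97 reads of BL6, 3668 of CAST) and 0.107 at the aged one (68 and 565), and its log2 ratio was -1.82. The difference of Actc1 between the libraries was therefore not shared by the loci on either side.

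Beside Tnnt2, the BL6 excess was not shared by Csrp1, 84.1 kb to the left, which had an allelic ratio of 0.459 and 0.456, and Igfn1, 101 kb to the right, had an allelic ratio of 0.681 and 0.517 from 47 and 29 reads. Nisch, 1.49 kb from Tnnc1, had an allelic ratio of 0.598 and 0.611, with a log2 ratio of 0.48, and on the other side Phf7 had 0.495 and 0.429. Ppp1r12c and Ppp6r1 beside Tnni3 had an allelic ratio from 0.469 to 0.514. Lactb and Tln2 beside Tpm1 ranged from 0.423 to 0.574, and Erich3 and Fpgt beside Tnni3k from 0.216 to 0.492. Of these 12 neighbours, Fmn1 was the only one whose intervals for the allelic ratio were separate between the libraries, beside 11.7% of all genes.

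The other tropomyosin, troponin and actin genes, which encode skeletal, smooth muscle and cytoplasmic forms, had fewer reads than any member in both libraries, although Tpm3, with 963 aged reads beside the 1097 of Tnnc1, came near. Of 13 such genes, 5 had 20 or more reads in both libraries. Of these, 4 were at least 1.5-fold higher in the aged library, beside 28.0% of all genes. They were Tpm4 (32.9 and 107 RPM, log2 ratio 1.70), Tpm3 (64.0 and 166 RPM, 1.37), the smooth muscle actin gene Acta2 (22.3 and 53.1 RPM, 1.253) and the beta-tropomyosin gene Tpm2 (11.4 and 19.3 RPM, 0.76). The cytoplasmic actin gene Actg1 had 38 and 32 reads, a log2 ratio of 0.50 whose interval includes 0. The median of the 5 was 1.253, beside 0.22 for all genes and 0.37 for the 6 members. Acta2 was the only 1 of the 5 with separate intervals for the allelic ratio, beside 11.7% of all genes. Its allelic ratio was 0.562 in adult and 0.432 in aged nuclei.

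The remaining 8 isoform genes did not reach the minimum. The genes for skeletal and developmental forms had few reads in either library, with 4 and 8 for Tnni1 (slow skeletal troponin I, which precedes Tnni3 in the developing heart), 0 and 1 for Tnni2, 11 and 16 for Tnnt1, 16 and 8 for Tnnt3 and 2 and 5 for Acta1 (skeletal alpha-actin). Actg2 had 6 and 8 reads and Actb 17 and 27. Tnnc2 was not listed in either file. At these read numbers a difference between the libraries was not detectable for most of them. The exceptions were Actb, with a log2 ratio of 1.41 (0.49 to 2.38), and Tnnt1, with 1.29 (0.09 to 2.54). The actin genes are near-identical in their coding sequence, and how reads shared between paralogs were assigned is not given in the sources used here, so that the division of reads among Actc1, Acta1 and Acta2 is uncertain where the reads are exonic.

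Of 22 genes for proteins that set the length of the thin filament, cap it or anchor it, 21 had 20 or more reads in both libraries. In this list 5 were at least 1.5-fold higher in the aged library, 2 lower and 14 between. Over all genes 28.0% were higher and 11.8% lower. The median log2 ratio of the list was 0.28, beside 0.22 for all genes. The higher ones were Lmod1 (log2 ratio 1.67), Xirp1 (1.26), the Z-disc adaptor gene Pdlim5 (0.78, from 1404 to 2416 RPM), the tropomodulin gene Tmod3 (0.76) and the muscle cofilin gene Cfl2 (0.61). The lower ones were Neb (-1.46, 549 and 119 reads), which encodes nebulin, and Lmod3 (-0.94). Tmod1, whose product caps the pointed end in cardiomyocytes, was level, at 162 and 159 RPM. Intervals for the allelic ratio were separate for 3 of the 21, beside 11.7% of all genes. The allelic ratio of the formin gene Fhod3 was 0.638 (adult) and 0.743 (aged), a BL6 share that was higher in the aged library as in Tnnt2, while Cfl2 (0.505 and 0.392) and Xirp1 (0.473 and 0.271) differed in the other direction.

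Other cardiomyocyte genes did not share the ratio of Actc1. Of 18 marker genes, 1 was at least 1.5-fold higher in the aged library, 7 were lower and 10 between, beside 28.0% higher and 11.8% lower over all genes, and their median was -0.05. Intervals for the allelic ratio were separate for 11 of the 18, beside 31.8% of genes with 1000 or more reads. This share rises with depth, from 11.7% at 20 or more reads, and the list was not matched in depth. For example, Ctnna3, with 51380 and 18127 reads, had separate intervals at an allelic ratio of 0.521 and 0.508. The marker at least 1.5-fold higher was the ventricular myosin light chain gene Myl2 (0.85). The lower ones were Myom2 (-3.48), Mlip (-1.12), the X-linked Fgf13 (-1.03), the titin gene Ttn (-0.79), Ctnna3 (-0.76), Rbm20 (-0.67) and Tecrl (-0.64). The loci of these lower markers span from 75.8 kb (Myom2) to 1574 kb (Ctnna3). Summed over the 18 markers, the level was 61032 RPM in adult and 49154 RPM in aged nuclei. Relative to the median of this list the log2 ratio of Actc1 was 2.09 and that of Tnni3k -0.90. In pooled nuclei, the number of cardiomyocytes and the RNA per cardiomyocyte cannot be told apart. The part of either, or of locus length, in the marker values was not tested.

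Markers of other cell types of the heart also differed between the libraries. Of those with 20 or more reads in both libraries, 5 of 9 fibroblast, 5 of 10 endothelial, 3 of 4 pericyte, 3 of 4 smooth muscle and 4 of 7 macrophage genes were at least 1.5-fold higher in the aged library, beside 28.0% of all genes. Their medians were 0.75, 0.57, 1.12, 1.12 and 0.70, beside 0.22 for all genes. The summed levels of these lists were 4130 and 4026 RPM for fibroblasts, 858 and 1347 for endothelial cells and 91.6 and 169 for pericytes. They were 791 and 1123 RPM for smooth muscle and 566 and 866 for macrophages. Single genes made up most of 2 of these sums. Myocd alone had 701 and 847 RPM in the smooth muscle list, and Lama2 alone had 2717 and 2129 RPM in the fibroblast list. The lymphocyte list had 91.6 and 44.4 RPM, and its genes did not differ alike. Adult and aged reads were 9 and 0 for Cd3e, 23 and 1 for Cd3d and 272 and 16 for Themis. Skap1 had 172 and 30, Bank1 404 and 197, Cd79a 9 and 9, and Ms4a1 4 and 5. Of 6 atrial genes, a list chosen after values had been seen, 4 had enough reads. Their log2 ratios lay between -0.60 and -0.18, with 81.7 and 66.8 RPM for the natriuretic peptide gene Nppa. Myl7 and Bmp10 missed the minimum in the aged library only. Myl7 had 38 and 10 reads, a log2 ratio of -1.18 (-2.35 to -0.15). Bmp10 had 29 and 1 reads, a log2 ratio of -4.11 (-9.46 to -1.52). The part of cell composition in the member values was not tested.

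**Figure D5:**
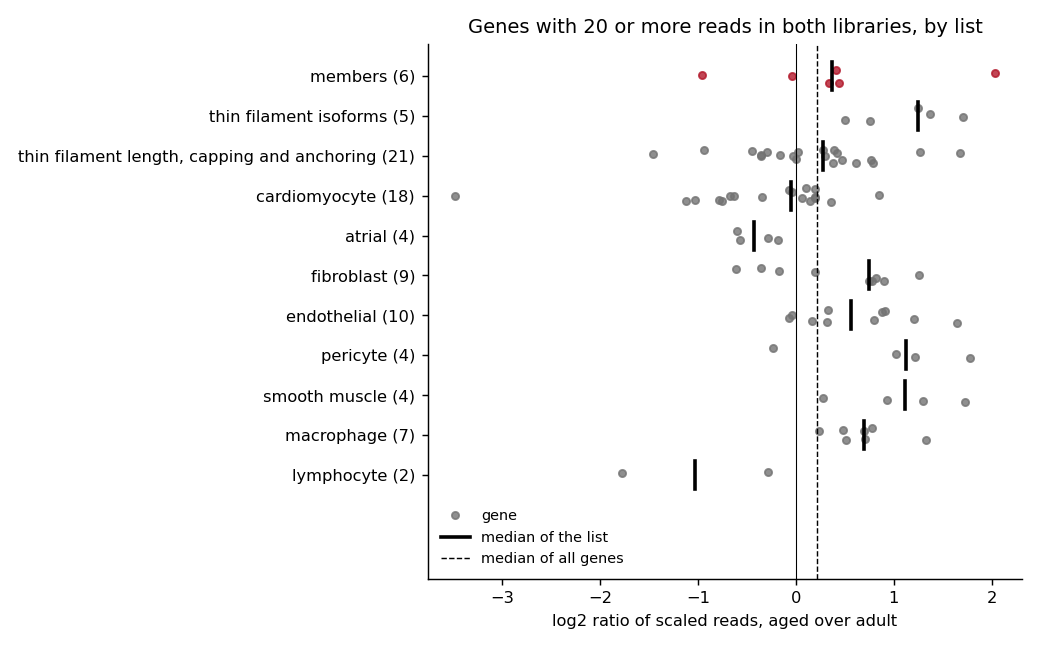
Log2 ratio of scaled reads (aged over adult) of the members and of the genes of 10 lists, 1 point per gene with 20 or more reads in both libraries (number of genes in parentheses), with the median of each list as a black bar and the median of all genes as a dashed line; vertical scatter within a list has no meaning. Actc1 is the rightmost of the members at 2.04, while the cardiomyocyte list has its median at -0.05 and the isoform list at 1.253.

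Over 7185 genes with 100 or more reads in both libraries and outside the lists, the gene nearest to each member in log2 ratio and allelic ratio was sought, with an allelic ratio difference weighted 10 times. The nearest genes were Casp8 for Tnnt2, Fam175b for Tnni3, Frmd6 for Tnnc1, Cry2 for Tpm1, Icosl for Actc1 and Zkscan8 for Tnni3k. The distance was smallest for Cry2 (0.019), with a log2 ratio of 0.33 and an allelic ratio of 0.579 and 0.558. It was largest for Icosl (0.253), with a log2 ratio of 2.09 and an allelic ratio of 0.424 and 0.478 from 118 and 299 reads. These likenesses rest on 2 libraries and are a description.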

How the data were processed

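Reads were aligned by the authors with Cell Ranger 7.1.0 to GRCm38 (mm10), split by nucleus with sinto and pooled over nuclei with an active BL6 X chromosome, and SNP-overlapping reads per RefSeq gene were counted with Allelome.PRO2. The deposited values are counts per allele, not normalized, the allelic ratio as a fraction rounded to 2 decimals, and an allelic score that was not used. The allelic ratio was recomputed from the counts. The study ran CellBender against ambient RNA and DoubletFinder against doublets on its expression matrices. The reads counted here come from the Cell Ranger alignments, and whether they were limited to nuclei kept after doublet removal, and whether duplicates were collapsed, is not given in the sources used here. Groups follow the age labels, although in the aged file's own name the week number differs. Starts were counted from 1.

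Python 3.11.15, numpy 2.4.6, pandas 2.3.3 and scipy 1.17.1 were used. allelic ratio intervals were exact Clopper-Pearson intervals, read ratios exact conditional binomial, levels Poisson, allelic ratio changes Newcombe and ratios between members Wald intervals on the log scale. The functions were tested on simulated data. Named genes were the members, list genes past 1.5-fold or with separate allelic ratio intervals (up to 8 per list), isoforms under 20 reads, neighbouring loci and nearest genes. Lists and members were chosen with earlier results of these data known. Phka1, Ccnd3, Myh6, Tmod1, Nppa, Cd3e, Cd3d, Themis, Bank1, Cd79a, Ms4a1, Bmp10, Myl7 and Myocd were added to these once values had been seen. Alternatives were other scalings, alleles, folds and read minimums.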

Additional observations from a re-analysis of the deposited data

How the results depend on the processing

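The median log2 ratio of the members, 0.37 as reported, was 0.15 relative to the median gene, 0.0925 relative to the list of length, capping and anchoring genes, 0.23 from CAST reads alone, -0.12 relative to genes of the same class of locus length and -0.28 relative to the other thin filament members, the last pair of scalings being added after the data were seen. Relative to the length class Tnni3 (-0.11) and Tnnc1 (-0.13) turned negative. Relative to the other thin filament members Tnni3 (-0.19), Tnnc1 (-0.22) and Tpm1 (-0.33) did, and 2 members (Tnnt2 and Tnni3k) were at least 1.5-fold lower. From BL6 reads alone 2 members, Actc1 and Tnnc1, were at least 1.5-fold higher, Tnnc1 with a ratio of 1.504 (1.35 to 1.67). For this count and the one before it, the share over all genes was not computed. With the limit at 0.32 on the log2 scale, 4 members and 43.7% of all genes were higher, and 19.97% of genes were lower. With the limit at a fold of 2, 0 members were lower, beside 5.14% of genes, and 11.5% of genes were higher. The share of genes lower was 18.7% with a minimum of 1 read. All 24 alternative values of allelic ratio and its change stayed within their intervals. They were the deposited ratios, which round the same counts to 2 decimals, or changes less the difference in autosomal medians (0.536 and 0.537). Such values could hardly differ, and so they do not test the allelic ratios.

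Leaving out a library was not possible, and no spread between animals is known. Whether duplicate reads of 1 molecule were removed is not given in the sources used here, and the intervals treat reads as independent. For read ratios and for the distance from the autosomal median, the background of genes with 1000 or more reads was also added after the data were seen.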
